A study of Mus musculus with 8 samples.

Results

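The 10 genes described here mark or signal to blood vessels: the apelin receptor Aplnr and its ligand Apln, the endothelial genes Cdh5, Pecam1, Tek and Tie1, the vascular endothelial growth factor (VEGF) receptors Kdr and Flt1, the sprout-front gene Esm1, and Vegfa, the ligand of both VEGF receptors. They were taken by symbol from a table of 57010 mouse gene identifiers, and each matched 1 identifier. The group was chosen by a measured value of Aplnr, which stood among the strongest rises in rd10 P15 against WT P15. That comparison is therefore given as a description without p-values for these 10 genes, as are the other values of Aplnr that use the same libraries. Nothing is read from calls or p thresholds of the 10 genes in that comparison, or of Aplnr where it shares those libraries. Genes of other lists are given there with their calls. Poly(A) RNA from whole retinas was sequenced, 1 retina per library, with 2 libraries for each of 4 groups: wild-type (WT) mice at postnatal day 15 (P15), which the study's methods describe as littermate controls, and rd10 mice, homozygous for a mutation of the rod gene Pde6b, at P15, P18 and P21. No treatment is named in the labels of these libraries. In rd10 mice the mutant phosphodiesterase leads to the death of rods, so a loss of these cells runs alongside every age comparison. WT retinas were sequenced at P15 alone, so that age and genotype cannot be told apart in rd10 P18 and P21 against WT P15. The labels do not link retinas to animals or litters, and the p-values measure only the spread between these libraries.

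Blood vessels enter the mouse retina from the optic nerve head, spread as a superficial plexus, and then dive to form deeper plexuses during the first postnatal weeks. VEGF released by glia and neurons draws out tip cells at the front of a sprout, and the cells behind them form the stalk. Kdr carries most of the VEGF signal, while Flt1 binds VEGF tightly and limits it. Kdr is also made by retinal neurons, so its level in a whole retina is not that of vessels alone. Aplnr is a G protein-coupled receptor of growing, mostly venous endothelium, and its peptide ligand Apln is typical of tip cells. Cdh5 (VE-cadherin) and Pecam1 (CD31) join endothelial cells to each other. Tek (TIE2) is the receptor of the angiopoietins, and Tie1 is its partner without a firmly known ligand of its own.

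Promoter sequences were looked up in RefSeq (build GRCm38.p6), where 7 of the 10 genes had an entry (Apln, Kdr, Flt1, Tek, Tie1, Esm1 and Vegfa), and Aplnr, Cdh5 and Pecam1 had none. The 250 bases before the transcription start are shown for Apln, which was highest in rd10 P15, and for the receptor pair Flt1 and Kdr, which were not. Capitals mark the letters AGGAAG on either strand (CTTCCT on the strand shown). They are 1 form of the core read by ETS factors, the transcription factor family best known for driving endothelial genes. Other forms were not searched, so a window without capitals can still hold such a core. All 3 genes lie on the minus strand, and the windows are chrX:48034854-48035103, chr5:147726012-147726261 and chr5:75978456-75978705.
Apln: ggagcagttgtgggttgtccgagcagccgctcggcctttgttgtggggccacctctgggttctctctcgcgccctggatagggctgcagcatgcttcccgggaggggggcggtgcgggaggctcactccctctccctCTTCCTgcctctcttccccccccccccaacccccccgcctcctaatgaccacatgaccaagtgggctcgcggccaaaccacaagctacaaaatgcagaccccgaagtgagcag
Flt1: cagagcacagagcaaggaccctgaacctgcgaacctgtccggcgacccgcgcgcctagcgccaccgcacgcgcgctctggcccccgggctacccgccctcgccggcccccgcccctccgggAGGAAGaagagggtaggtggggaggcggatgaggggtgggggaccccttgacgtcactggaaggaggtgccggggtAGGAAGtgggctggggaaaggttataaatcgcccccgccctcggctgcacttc
Kdr: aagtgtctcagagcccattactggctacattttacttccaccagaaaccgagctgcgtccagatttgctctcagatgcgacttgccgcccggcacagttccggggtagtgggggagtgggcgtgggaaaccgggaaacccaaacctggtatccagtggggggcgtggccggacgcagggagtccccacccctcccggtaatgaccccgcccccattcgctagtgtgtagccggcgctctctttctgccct
The Apln window held 1 match, the Flt1 window 2 and the Kdr window 0. Of the other windows, that of Tie1 held 1 match and those of Tek, Esm1 and Vegfa held 0. Among all 32851 promoter entries, 29.5% held at least 1 match in the same 250 bases, so a match says little about a single gene, and none of these letters tells which factor binds.

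Total counts lay between 28076947 and 33724562 per library, and mitochondrial genes took 3.03% to 3.86% of them. Levels are given as CPM (counts scaled to library size by TMM), and levels of different genes are ordered only as RPKM (CPM per kilobase of exon). Sums over genes, ratios of genes and the choice of list genes to name use CPM or counts, which are not corrected for exon length. A gene was called when edgeR, over 20457 genes tested, gave an adjusted p below 0.05 with a log2 fold change beyond 1 either way. Of the 10 genes, 9 were tested and Esm1 had too few counts. Both WT P15 libraries had high Xist and near-absent Y-linked counts, both rd10 P15 libraries had the opposite, and P18 and P21 held 1 library of each kind, so that sex and genotype cannot be told apart in rd10 P15 against WT P15. The summed rod markers lay between 17538 and 45849 CPM in the 8 libraries, highest in the WT ones, and Cdh5 and Pecam1, the defining endothelial markers, had at least 154 counts in each library.

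Per length of exon, Vegfa and Kdr were the most abundant of the genes in all groups and Aplnr, in WT P15, was the least abundant of the 9 tested. In WT P15, Kdr had a mean level of 25.3 RPKM ± 5.60 (SD, n = 2) and Vegfa 25.1 RPKM ± 1.02. Flt1 followed with 6.84 RPKM ± 0.273. Tek, Pecam1 and Cdh5 had means between 1.28 and 1.68 RPKM and overlapping libraries, so that their order is not larger than their spread. Tie1 had 0.871 RPKM ± 0.211 and Apln 0.638 RPKM ± 0.292, with overlapping libraries, and Aplnr 0.309 RPKM ± 0.0701. In rd10 P15 the low genes drew together: Apln stood at 4.32 RPKM ± 0.898, Cdh5 at 3.94 ± 0.363, and Tie1, Pecam1 and Aplnr at 2.96 ± 0.282, 2.91 ± 0.0964 and 2.91 ± 0.121 RPKM. Aplnr and Pecam1, apart in WT P15, could not be ordered in rd10 P15.

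**Figure D1:**
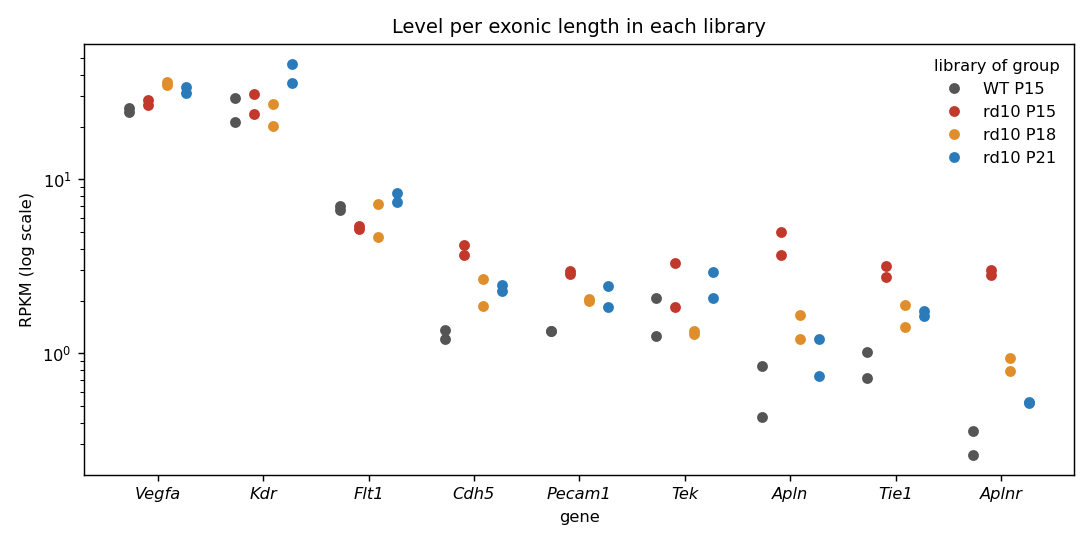
Level of each gene in each library as RPKM (log axis), genes ordered by their mean over the 8 libraries, 1 point per library, coloured by group. Vegfa and Kdr sit above 20 RPKM in every library, while Aplnr spans from 0.260 RPKM in a WT P15 library to 2.99 RPKM in an rd10 P15 library. Esm1 is not drawn.

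Aplnr and Apln, receptor and ligand, were both highest in rd10 P15 and lower at each later age. Aplnr (ENSMUSG00000044338, chr2:85136225-85139923, plus strand, 1 exon) was read at 0.961 and 1.33 CPM in WT P15 and, for rd10, 10.4 and 11.1 CPM at P15, 3.49 and 2.93 CPM at P18, and 1.94 and 1.92 CPM at P21. The underlying counts were 26 and 41 in WT P15 and, for rd10, 328 and 314 at P15, 117 and 93 at P18, and 68 and 55 at P21. No 2 groups overlapped, in the order rd10 P15, P18, P21 and WT P15. In rd10 P15 against WT P15 the log2 fold change was 3.23 ± 0.35 (SE), or 9.35-fold, the third largest among 28 genes called higher in that comparison. It was 1.48 ± 0.33 at P18 and 0.75 ± 0.33 at P21 against the same WT libraries. Within rd10, the level was 5.56-fold lower at P21 than at P15 (log2 fold change -2.47 ± 0.33). Between P21 and P18, the comparison that uses none of the libraries behind the choice, the log2 fold change was -0.73 ± 0.32 with an edgeR adjusted p of 0.462.

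Apln (ENSMUSG00000037010, chrX:48025146-48034853, minus strand) was read at 2.66 and 1.36 CPM in WT P15 and, for rd10, 11.6 and 15.6 at P15, 3.82 and 5.23 at P18, and 2.34 and 3.81 at P21. The rd10 P15 libraries stood above all others, the P18 libraries stood above the P21 libraries by a narrow margin, and the P21 libraries overlapped those of WT P15. The log2 fold change against WT P15 was 2.76 ± 0.44 at P15. It was 1.17 ± 0.42 at P18 and 0.61 ± 0.42 at P21, with edgeR adjusted p of 0.210 and 0.648. Within rd10, Apln was 4.43-fold lower at P21 than at P15, a difference larger than the spread between libraries that did not pass over all genes (edgeR adjusted p = 0.0899). DESeq2 called this difference and that between P18 and P15 (adjusted p = 0.000356 and 0.0198). Apln lies on the X chromosome, and at P18 and at P21 the library with high Xist had the higher Apln level, while Aplnr was not higher in it. With a term for the Y-linked genes, the log2 fold change of Apln from rd10 P15 to P21 was -2.53 (adjusted p = 0.0587), where it was -2.15 ± 0.42 without the term. The ratio of Apln to Aplnr counts lay between 1.02 and 2.77, both in WT P15, and the groups overlapped. Apela, the other known ligand of Aplnr, stood between 1.88 and 5.37 CPM, highest in a WT P15 library, and was not called in any of the 6 comparisons.

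**Figure D2:**
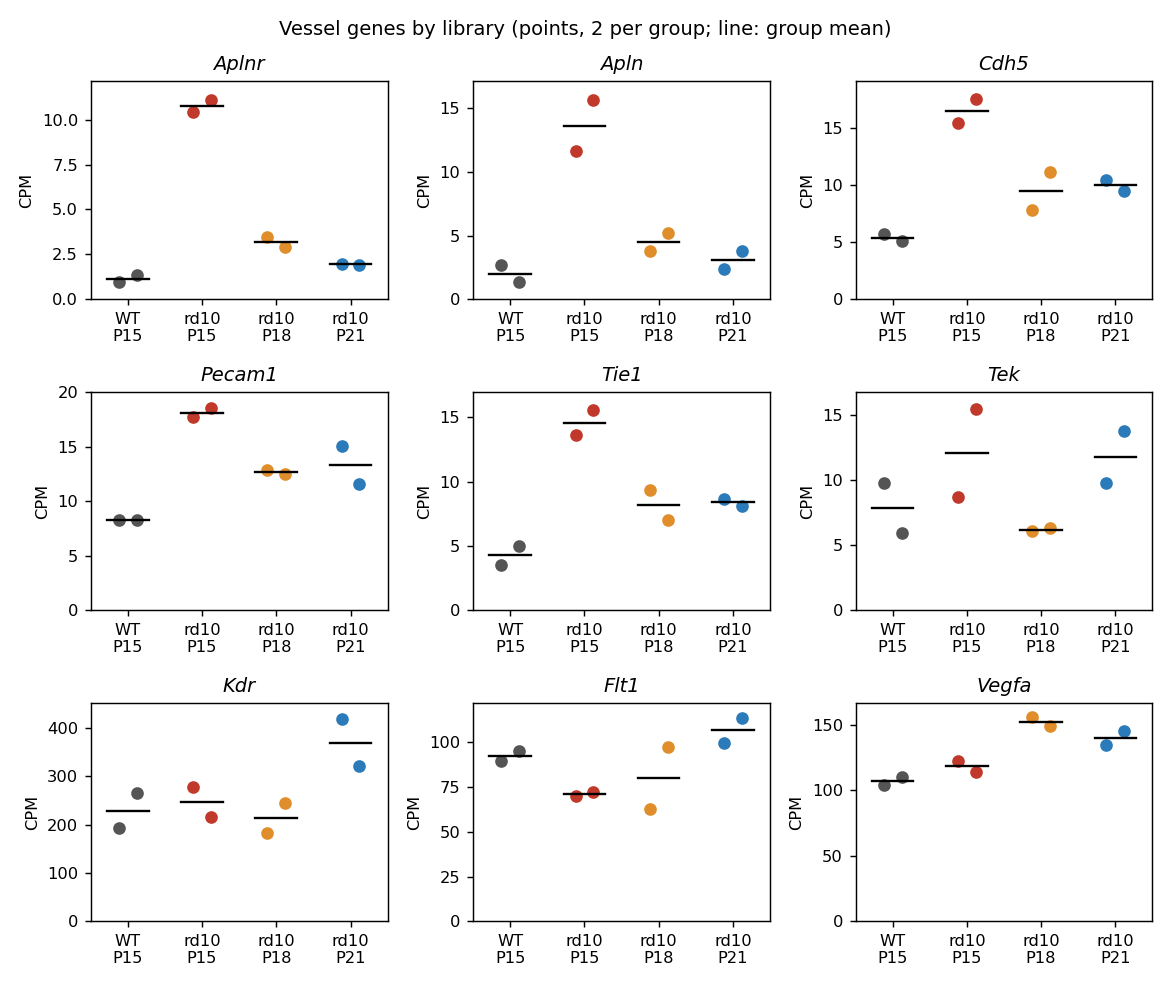
Level (CPM, axis from 0) of the 9 tested genes in each library, 2 points per group with the group mean as a line. Aplnr, Apln, Cdh5, Pecam1 and Tie1 have both rd10 P15 libraries above the other 6 libraries, whereas Kdr and Flt1 are highest in rd10 P21 and Vegfa in rd10 P18.

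The junction genes Cdh5 and Pecam1 and the orphan receptor Tie1 followed the same order at the top and bottom, highest in rd10 P15 and lowest in WT P15, with rd10 P18 and P21 in between and overlapping. Cdh5 (ENSMUSG00000031871, chr8:104101625-104144511, plus strand) was read at 5.69 and 5.08 CPM in WT P15 and, for rd10, 15.5 and 17.6 at P15, 7.87 and 11.2 at P18, and 10.4 and 9.54 at P21. Pecam1 (ENSMUSG00000020717, chr11:106654217-106750628, minus strand) was read at 8.32 CPM in both WT P15 libraries and, for rd10, 17.7 and 18.5 at P15, 12.8 and 12.5 at P18, and 15.1 and 11.6 at P21. Tie1 (ENSMUSG00000033191, chr4:118471191-118490061, minus strand) was read at 3.55 and 5.02 CPM in WT P15 and, for rd10, 13.6 and 15.5 at P15, 9.37 and 6.99 at P18, and 8.65 and 8.11 at P21. All 3 genes thus kept a level above both WT P15 libraries in each rd10 library at each age. In a whole retina, more endothelial cells and more RNA per cell cannot be told apart. Against WT P15 the log2 fold change at P15 was 1.62 ± 0.25 for Cdh5, 1.12 ± 0.21 for Pecam1 and 1.76 ± 0.28 for Tie1. At P18 it was 0.82 ± 0.25, 0.61 ± 0.21 and 0.93 ± 0.28 in the same order, and at P21 it was 0.89 ± 0.25, 0.68 ± 0.21 and 0.97 ± 0.28. None of these 6 later values passed over all genes (edgeR adjusted p between 0.136 and 0.233).

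Tek (ENSMUSG00000006386, chr4:94739289-94874976, plus strand) did not share the order of its partner Tie1. It was read at 9.83 and 5.96 CPM in WT P15 and, for rd10, 8.72 and 15.5 at P15, 6.11 and 6.30 at P18, and 9.82 and 13.8 at P21. Libraries of WT P15, rd10 P15 and rd10 P21 overlapped, and the closest pair of replicates was that of rd10 P18, the lowest group by its mean. The log2 fold change against WT P15 was 0.62 ± 0.36 at P15, -0.35 ± 0.36 at P18 and 0.58 ± 0.36 at P21. From P18 to P21 it was 0.93 ± 0.36, with libraries apart and an edgeR adjusted p of 0.440. The ratio of Tek to Tie1 counts was 2.77 and 1.19 in WT P15 and, for rd10, 0.642 and 0.998 at P15, 0.653 and 0.901 at P18, and 1.14 and 1.70 at P21. It was therefore lower in the 4 rd10 libraries of P15 and P18 than in the other 4 libraries, a difference described and not tested.

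The VEGF receptors and their ligand had other orders, with their highest levels at P18 or P21. Kdr (ENSMUSG00000062960, chr5:75932827-75978458, minus strand) was read at 193 and 265 CPM in WT P15 and, for rd10, 278 and 215 at P15, 182 and 245 at P18, and 418 and 321 at P21. The first 3 groups overlapped, and both rd10 P21 libraries stood above the other 6. The log2 fold change of Kdr at P21 was 0.69 ± 0.23 against WT P15, 0.58 ± 0.23 against rd10 P15 and 0.79 ± 0.23 against rd10 P18 (edgeR adjusted p of 0.283, 0.342 and 0.429). Flt1 (ENSMUSG00000029648, chr5:147561604-147726011, minus strand) was read at 89.8 and 95.0 CPM in WT P15 and, for rd10, 70.1 and 72.5 at P15, 62.8 and 97.5 at P18, and 99.7 and 113 at P21. It was the 1 member with both rd10 P15 libraries below both WT P15 libraries, at a log2 fold change of -0.37 ± 0.20, and its rd10 P18 libraries lay on both sides of every WT P15 and rd10 P15 library. Flt1 too had both rd10 P21 libraries above the other 6, with a log2 fold change of 0.58 ± 0.20 against rd10 P15 (edgeR adjusted p = 0.278). The ratio of Kdr to Flt1 counts lay between 2.15 and 4.19 and overlapped between groups.

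Vegfa (ENSMUSG00000023951, chr17:46016993-46032369, minus strand) was read at 104 and 110 CPM in WT P15 and, for rd10, 123 and 114 at P15, 156 and 149 at P18, and 135 and 146 at P21. No 2 groups overlapped, in the order rd10 P18, P21, P15 and WT P15, so the ligand was highest after the age at which Aplnr and Apln were. Its log2 fold change against WT P15 was 0.14 ± 0.12 at P15, 0.51 ± 0.12 at P18 and 0.39 ± 0.12 at P21. The P18 value had an edgeR adjusted p of 0.0874 and was under the fold a call needs. Esm1 (ENSMUSG00000042379, chr13:113209659-113218098, plus strand), which encodes endocan and marks tip cells, had 2 counts in 1 rd10 P15 library and 0 in the other 7 libraries. A count of 0 allows up to 3 counts, or 0.0856 to 0.111 CPM by library, for counting error only, so no difference in Esm1 was detectable at this depth.

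**Figure D3:**
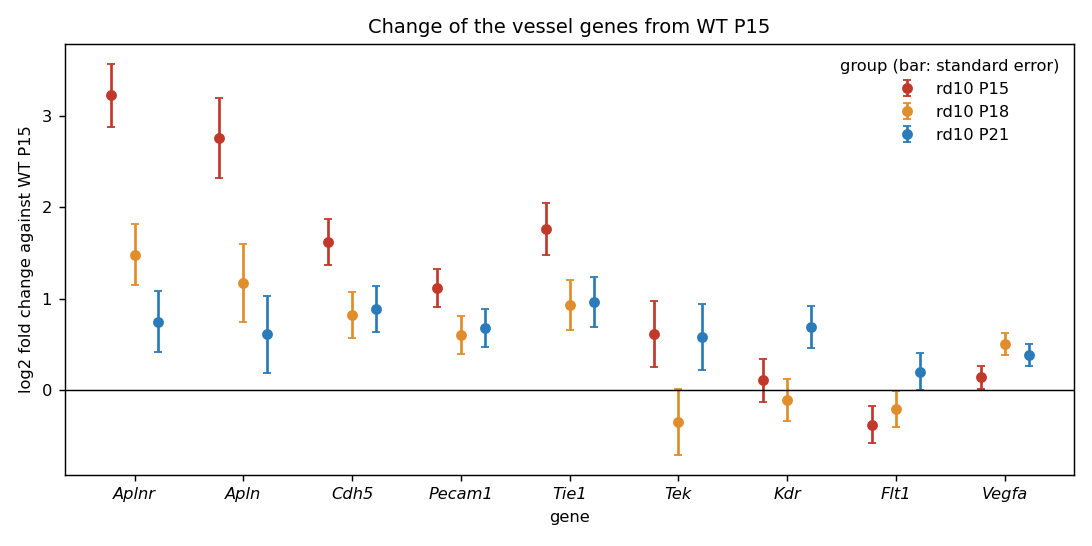
Log2 fold change against WT P15 for the 9 tested genes at the 3 ages of rd10 (points, with bars for the standard error; the WT libraries are shared by the 3 comparisons). Aplnr and Apln fall from 3.23 and 2.76 at P15 to 0.75 and 0.61 at P21, Cdh5, Pecam1 and Tie1 stay between 0.61 and 0.97 at the later ages, and Kdr, Flt1 and Vegfa stay within 0.70 of 0.

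Across the 9 tested genes, calls were few. In rd10 P15 against WT P15, 1 member was called (Aplnr), where 0.230% of all tested genes were called, and 6 members had both libraries above both of WT P15 against 24.8% of all genes. DESeq2 called 5 of the 9 and 2.04% of all genes. Since Aplnr was selected on this comparison, nothing is read from these counts. In rd10 P18 against WT P15, 0 members were called (1.48% of all genes), 6 had libraries above WT P15 (24.1% of all genes), and 6 had an unadjusted p under 0.05, all higher (9.94% of all genes in that direction). DESeq2 called 1, Aplnr, in this comparison, and 4.58% of all genes. Without the second rd10 P18 library edgeR called 2, Aplnr and Tie1, and 5.70% of all genes, so that calls were more frequent over the whole table under both. In rd10 P21 against WT P15, 0 were called by edgeR and 0 by DESeq2 (0.386% and 2.76% of all genes), 7 had libraries above WT P15 (24.9% of all genes), and 5 had an unadjusted p under 0.05, all higher (7.25% of all genes). The 3 comparisons share the WT P15 libraries, so that a low WT value enters each of them. Aplnr was chosen on a comparison that uses those libraries. Nothing is therefore read from its calls at P18, or from its part in the counts at P18 and P21.

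Among the rd10 ages, 0 members were called from P15 to P18 by edgeR (0.591% of all genes), while 6 had both P18 libraries below both P15 libraries (20.4% of all genes) and 7 had an unadjusted p under 0.05, 6 of them lower and 1, Vegfa, higher (12.9% of all genes in either direction). DESeq2 called 2 there, Aplnr and Apln, and 2.82% of all genes, and edgeR without the second rd10 P18 library called 2, Aplnr and Cdh5, and 4.45% of all genes. From P15 to P21, 0 of the 8 tested members other than Aplnr were called by edgeR (0.401% of all genes) and 1, Apln, by DESeq2 (2.62%). Aplnr passed both. Since it was chosen on the rd10 P15 libraries, nothing is read from that or from its calls from P15 to P18. The same holds for its part in the counts of either comparison. From P15 to P21, an unadjusted p under 0.05 was found for 6 of the 9, 4 lower and 2 higher (12.8% of all genes in either direction). There 5 members had libraries below those of P15 (25.5% of all genes) and 3, Kdr, Flt1 and Vegfa, had libraries above them (26.0%). From P18 to P21, 0 were called by edgeR and 0 by DESeq2 (0.0196% and 0.628% of all genes). There 2 members, Kdr and Tek, had an unadjusted p under 0.05, both higher at P21 (10.8% of all genes in either direction). Aplnr, Apln, Cdh5, Pecam1 and Tie1 had both rd10 P15 libraries above the other 6 libraries, 5 of 9 members against 7.28% of all genes. Aplnr, Cdh5, Pecam1, Tie1 and Vegfa had both WT P15 libraries below the other 6 libraries, 5 of 9 members against 7.21% of all genes. Both counts use the libraries of the comparison that chose Aplnr.

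Over the 8 libraries, the log2 CPM of Aplnr, Apln, Cdh5, Pecam1 and Tie1 ran together, with Pearson correlations between 0.80 and 0.95 for their 10 pairs. These points share libraries, scaling and 4 groups, and the values are given without a p. Kdr had correlations between -0.21 and 0.22 with those 5 genes and 0.61 with Flt1, and Flt1 had correlations between -0.66 and -0.31 with the 5. Tek lay between 0.28 and 0.50 with them, and Vegfa between 0.04 and 0.30. A sum over endothelial genes would hide the different orders of these genes: Kdr and Flt1 made up 81.1% to 93.7% of the summed CPM of Kdr, Flt1, Cdh5, Pecam1, Tek and Tie1. Against that sum, Aplnr was 0.00310 and 0.00346 in WT P15 and, for rd10, 0.0258 and 0.0312 at P15, 0.0124 and 0.00772 at P18, and 0.00346 and 0.00402 at P21. By this ratio the P21 libraries lay beside those of WT P15. The sum itself was 561 and 478 CPM at P21 and 310 and 384 CPM in WT P15. Aplnr alone was 1.94 and 1.92 CPM at P21, above the 0.961 and 1.33 CPM of WT P15.

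Among 28 other endothelial markers, all tested, 24 had a positive log2 fold change in rd10 P15 against WT P15, with a median of 1.17 against -0.01 for all genes. The markers called there by edgeR were Cldn5, the main claudin of the blood-retina barrier, Cd34, a surface sialomucin, and Cd93, a receptor of sprouting endothelium. DESeq2 called 8 of the 28, these 3 with Adgrl4, Eng, Mfsd2a, Ramp2 and Sox18. Over all genes edgeR called 0.230% there and DESeq2 2.04%. Cldn5 was read at 8.87 and 8.19 CPM in WT P15 and, for rd10, 33.9 and 34.4 at P15, 32.4 and 22.7 at P18, and 19.7 and 19.8 at P21. All 6 rd10 libraries stood above both WT libraries, and at P18 its log2 fold change of 1.69 was called (edgeR adjusted p = 0.0125), the 1 marker of the 28 called at P18 by edgeR. At that age 10 of the 28 had an unadjusted p under 0.05 (17.4% of all genes) and DESeq2 called 6, Adgrl4, Cd34, Cldn5, Mfsd2a, Ramp2 and Vwf. Over all genes edgeR called 1.48% at P18 and DESeq2 4.58%. The edgeR call of Cldn5 did not hold without either WT P15 library (adjusted p of 0.104 and 0.0759) or with only the 4 libraries compared (0.0606). Cd34 had a log2 fold change of 1.45 at P18 and just missed the threshold (adjusted p of 0.05003), and Cd93 had 0.94 (adjusted p = 0.170). At P21, 27 of the 28 were positive, with a median of 0.64 and 0 called by edgeR, although 11 had an unadjusted p under 0.05 (11.8% of all genes). DESeq2 called 6 at P21, Cd34, Cd93, Cldn5, Mfsd2a, Ramp2 and Vwf. Over all genes edgeR called 0.386% at P21 and DESeq2 2.76%. Of the other markers, S1pr1, a sphingosine phosphate receptor, Ptprb, the phosphatase that restrains Tek, and Vwf had the highest mean CPM. Their log2 fold changes at P18 were -0.17, 0.07 and 1.20 (edgeR adjusted p of 0.670, 0.944 and 0.0985). Both rd10 P15 libraries stood above the other 6 for 10 of the 28, and both WT P15 libraries stood below the other 6 for 11, where 7.28% and 7.21% of all genes did.

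Mural cells, the pericytes and smooth muscle that wrap vessels, were read from 14 markers, of which 12 had a positive log2 fold change in rd10 P15 against WT P15 (median 1.20). The 1 called there by edgeR was Rgs5, a pericyte regulator of G protein signalling, at 88.3 and 90.8 CPM in WT P15 and, for rd10, 173 and 190 at P15, 117 and 109 at P18, and 90.4 and 102 at P21. DESeq2 called 4 in that comparison, Abcc9, Cspg4, Notch3 and Rgs5, where edgeR called 0.230% of all genes and DESeq2 2.04%. The rd10 P21 libraries of Rgs5 overlapped those of WT P15, and its log2 fold change from rd10 P15 to P21 was -0.91 (edgeR adjusted p = 0.0351), under the fold a call needs. Pdgfrb, the pericyte receptor of PDGF-B, and Abcc9, a potassium channel subunit, had log2 fold changes of 0.13 and 0.42 against WT P15 at P18, with adjusted p of 0.836 and 0.482. Vtn (vitronectin) made up 62.7% to 85.9% of the summed CPM of the list and was lower in each rd10 library than in WT P15, with log2 fold changes of -0.58 at P18 and -0.92 at P21 (adjusted p of 0.142 and 0.0824). Without Vtn the mural genes summed to 140 and 137 CPM in WT P15 and, for rd10, 261 and 287 at P15, 175 and 173 at P18, and 166 and 169 at P21.

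Of 11 tip cell and sprouting genes, 10 were tested, and their median log2 fold change against WT P15 was 1.14 at P15, 1.29 at P18 and 0.75 at P21, with 0 called by edgeR at each age. Unadjusted p was under 0.05 for 6, 4 and 2 of them (12.3%, 17.4% and 11.8% of all genes at the 3 ages, in either direction). DESeq2 called 2 at P15 (Cxcr4 and Nid2), 2 at P18 (Igfbp3 and Pgf) and 1 at P21 (Adm). The lists share genes: Pgf is also in the VEGF and angiopoietin list and Adm in the hypoxia list, and their calls are counted again there. Over all genes DESeq2 called 2.04%, 4.58% and 2.76% at these ages. The list genes of highest mean CPM were Unc5b, a netrin receptor of tip cells, Igfbp3, Nid2, a basement membrane protein, and Angpt2, a ligand that blocks or activates Tek by context. At P18 their log2 fold changes were 0.19, 1.47, 0.80 and 0.49 (adjusted p of 0.701, 0.0901, 0.425 and 0.453). Of the other VEGF and angiopoietin genes, 9 of 10 were tested and 0 were called by edgeR in any comparison, with medians against WT P15 of 0.54, 0.57 and 0.32. Against WT P15, 2, 4 and 1 of them had an unadjusted p under 0.05 at the 3 ages, all higher but 1 of the 4. The shares of all genes were the same 12.3%, 17.4% and 11.8%, and that at P21 was near the share of the list (11.1%). DESeq2 called 1, Pgf (placental growth factor) at P18, and 4.58% of all genes. Nrp2 and Nrp1, the neuropilin co-receptors, Vegfb and Flt4, the third VEGF receptor, had log2 fold changes at P18 of -0.21, 0.57, 0.09 and -0.81 (adjusted p between 0.226 and 0.893).

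Norrin and Wnt signalling, which shapes the deep retinal plexus through Fzd4, Lrp5 and Tspan12, had 7 genes tested and 0 called by edgeR in any comparison. Against WT P15, 4, 4 and 2 of the 7 had an unadjusted p under 0.05 at the 3 ages (12.3%, 17.4% and 11.8% of all genes), all higher but 1 of the 4 at P18. DESeq2 called 1, Lrp5 at P21, and 2.76% of all genes. Apcdd1, Axin2, Lrp5 and Fzd4 had log2 fold changes at P21 of 0.62, 0.09, 1.38 and -0.46, the largest with an edgeR adjusted p of 0.0881 (Lrp5). In the hypoxia list, 19 of 20 genes were tested and 0 were called by edgeR in any comparison. Against WT P15, 11 were positive at P15, 17 at P18 and 12 at P21, with medians of 0.04, 0.29 and 0.06. The highest median and the highest level of Vegfa both fell at P18, and a link between them was not tested. Unadjusted p was under 0.05 for 4 of the 19 at P15 (3 higher), 6 at P18 (all higher) and 3 at P21 (all higher), beside the same 12.3%, 17.4% and 11.8% of all genes. DESeq2 called 1 at each age, the lower Hk2 at P15, the higher Angptl4 at P18 and the higher Adm at P21. Over all genes DESeq2 called 2.04%, 4.58% and 2.76% at the 3 ages. Ldha and Pgk1, both enzymes of glycolysis, Hk2, the hexokinase of photoreceptors, and Ndrg1, a stress-induced gene, had log2 fold changes at P18 of 0.29, 0.34, -0.43 and 0.20 (adjusted p between 0.280 and 0.430).

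**Figure D4:**
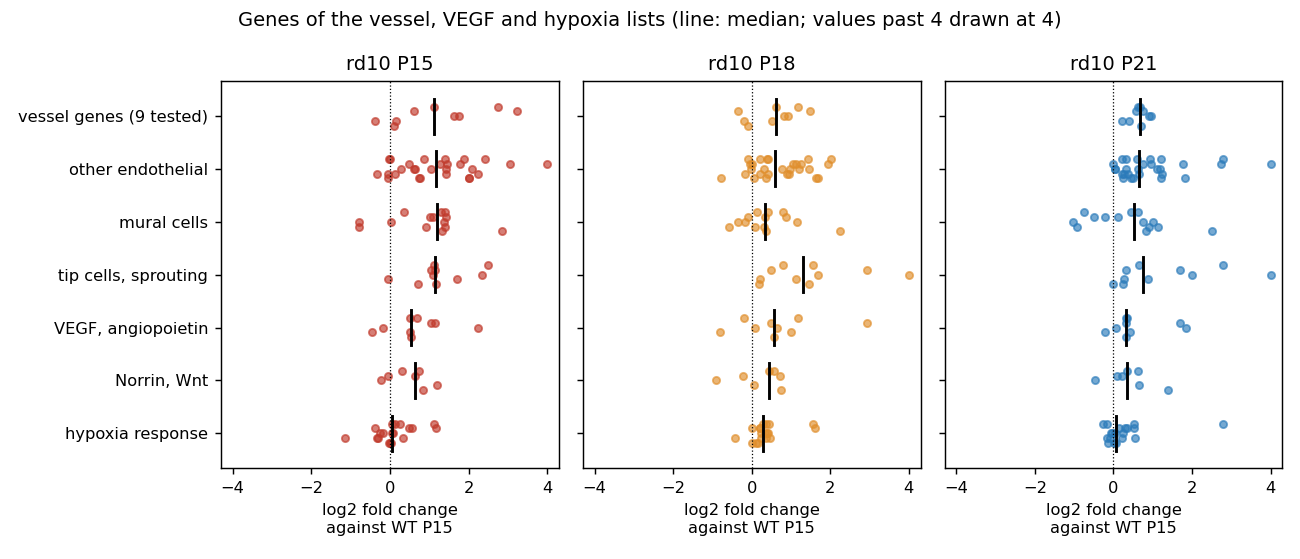
Log2 fold change against WT P15 of each tested gene of 7 lists, 1 panel per rd10 age, with the list median as a line and values past 4 drawn at 4. The endothelial and mural medians are 1.17 and 1.20 at P15 and 0.60 and 0.33 at P18, and the hypoxia medians stay between 0.04 and 0.29.

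Markers of other cells moved in the same libraries. Summed pigment epithelium markers (8 genes) were 32.6 and 126 CPM in WT P15 and, for rd10, 222 and 253 at P15, 38.1 and 25.5 at P18, and 39.0 and 37.7 at P21. Rpe65, the defining isomerase of this epithelium, was read at 3.47 and 15.5 CPM in WT P15, 14.7 and 19.8 CPM in rd10 P15, and 0.693 to 1.61 CPM at P18 and P21. In rd10 P15 against WT P15, 7 of the 8 were positive and 5 had both rd10 P15 libraries above the other 6, as Aplnr did. The pigment epithelium sum of the second WT P15 library was above those of all P18 and P21 libraries, where Aplnr was lower in that WT library (1.33 CPM) than in each of the 4 (1.92 to 3.49 CPM). Between the WT libraries this sum differed from 32.6 to 126 CPM and Aplnr from 0.961 to 1.33 CPM. The part of pigment epithelium in the rd10 P15 values was not tested. Summed haemoglobin and erythroid genes, a sign of blood left in the vessels, were lower in rd10 P15 (67.1 and 84.6 CPM) than in WT P15 (188 and 177 CPM), opposite to the endothelial genes. The same sum was 160 and 56.8 CPM in rd10 P18 and 125 and 133 CPM in rd10 P21, so 1 P18 library stood below both rd10 P15 libraries. Astrocyte markers, which form the template for the superficial vessels, were 51.7 and 62.5 CPM in sum in WT P15 and 82.7 to 114 CPM in the rd10 libraries. Microglia markers summed to 66.7 and 69.3 CPM in WT P15, 87.5 and 93.3 CPM in rd10 P15 and 160 to 280 CPM at P18 and P21. By edgeR, 4 of 8 were called above WT P15 at P18 and 3 of 8 at P21, beside 1.48% and 0.386% of all genes called. Reactive Muller glia markers were 258 and 293 CPM in WT P15, 222 CPM in both rd10 P15 libraries and 874 to 1653 CPM at P18 and P21. Lymphatic markers, of which Prox1 is also made by retinal cells, overlapped in sum between rd10 P15 and WT P15 (333 and 358 CPM in WT P15). The sum was 335 and 414 CPM in rd10 P18 and 496 and 437 CPM in rd10 P21. Of the 4 markers, edgeR called 1 against WT P15 at P18, the higher Pdpn (log2 fold change 1.47, adjusted p = 0.0172), beside 1.48% of all genes, and 0 at P21.

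**Figure D5:**
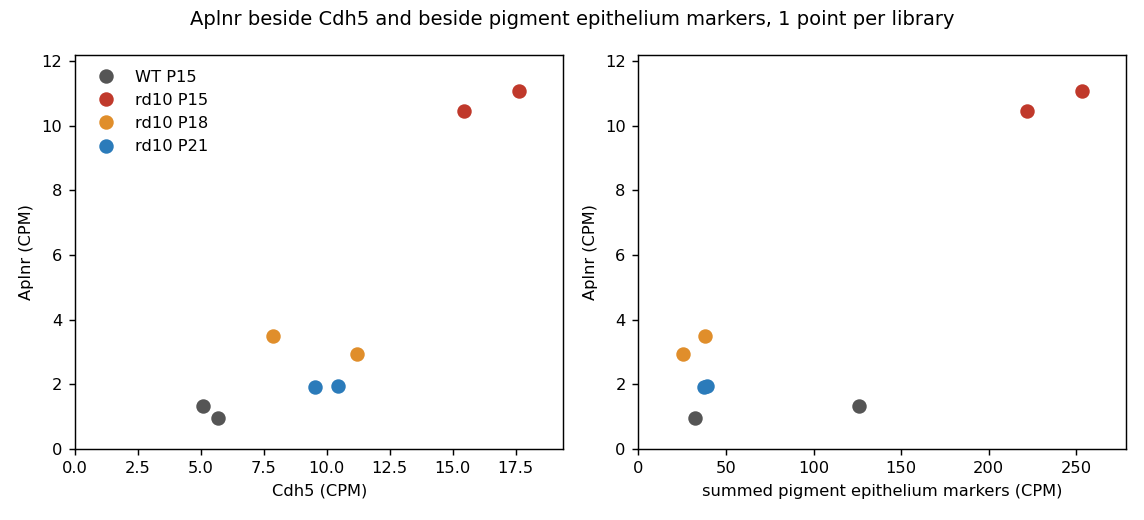
Aplnr (CPM, vertical axis) against Cdh5 (left) and against summed pigment epithelium markers (right), 1 point per library, coloured by group. The 2 rd10 P15 libraries are highest on all axes, and the WT P15 library with 126 CPM of pigment epithelium markers has 1.33 CPM of Aplnr.

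The 5 genes whose log2 CPM ran closest to Aplnr over the 8 libraries, among 15129 genes with a mean count of at least 50, were Sprn (Pearson correlation 0.99), Lypd6b (0.98), Ndrg1 (0.98), Dynlt1b (0.98) and Rgs5 (0.98). The correlation was over 0.9 for 127 genes. Sprn, which encodes the prion-like protein Shadoo, had 34.1 and 36.6 CPM in WT P15 and, for rd10, 64.4 and 60.7 at P15, 43.9 and 45.3 at P18, and 42.3 and 39.4 at P21. Ndrg1 had 264 and 257 CPM in WT P15 and, for rd10, 387 and 377 at P15, 309 and 290 at P18, and 288 in both libraries at P21. All 5 shared the order rd10 P15, P18, P21 and WT P15 of their group means with Aplnr, over a smaller range. Their choice by correlation with Aplnr over the same libraries favours a shared order.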

How the data were processed

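The authors deposited 1 table of raw counts (whole numbers, not normalized) per Ensembl gene for 8 whole-retina libraries, and all 8 columns were used. The submitters' processing notes name HISAT2, while its version, the way reads were counted, and the build and annotation behind the table were not given in the sources used here. GENCODE M21 (GRCm38) gave symbols, positions and exon lengths and named 52029 of 57010 identifiers, and no member shared exon bases with another gene.

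Genes were kept by filterByExpr (minimum count 10, minimum total count 15), scaled by TMM and fitted with edgeR 4.0.16 (limma 3.58.1, R 4.3.3) by robust quasi-likelihood over all 8 libraries and 4 groups, without a block, with 4 residual degrees of freedom. P-values were adjusted by Benjamini-Hochberg over 20457 genes, and a call needed an adjusted p below 0.05 with a log2 fold change beyond 1 either way. RPKM divide CPM by merged exon length, and log2 CPM for correlations used a prior count of 2. For 2 libraries against 2, the smallest exact permutation p is 0.333. Replicates differed beyond sampling noise (chi-square per gene of 24.5 to 103), and same-numbered libraries did not deviate together (correlations of -0.02 to 0.06). Alternatives were DESeq2 1.42.0, RLE, library size only, no filter, 4 libraries, a replicate block, a Y-linked covariate, no fold threshold and each library left out.

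The members and gene lists were chosen with earlier results of these data known. Named were all members, and from each other vessel, VEGF, Norrin or hypoxia list the genes called in a described comparison and up to 4 of highest CPM, and the 5 genes most like Aplnr. Other genes named as called by DESeq2 were chosen after their values were seen. Lists for other cells are given as sums. Rpe65, the single astrocyte genes, Pdpn and the counts of microglia markers called were added after their values were seen. Figures used matplotlib 3.10.9.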

Additional observations from a re-analysis of the deposited data

How the results depend on the processing

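The number of members called depended on the fit. In rd10 P15 against WT P15 it was 1 in the analysis reported, 3 with library size only, 5 with DESeq2, 4 without a filter, 5 with only the 4 libraries compared, 0 with the Y-linked covariate, and 0 to 5 with 1 library left out (0 without either WT P15 or either rd10 P15 library). The number called over all genes moved with it, at 47 in the analysis reported and 54, 423, 144, 206 and 3 under the same alternatives in that order. For rd10 P18 against WT P15 it was 1 with DESeq2 and 0 to 2 with 1 library left out, where Aplnr and Tie1 were called without the second rd10 P18 library. For rd10 P18 against rd10 P15 it was 2 with DESeq2 and 0 to 2, where Aplnr and Cdh5 were called without the same library. For rd10 P21 against rd10 P15 it was 2 with DESeq2, 2 without a filter, 2 with 4 libraries, 0 with the Y-linked covariate and 0 to 2 with 1 library left out (0 without either rd10 P15 or either rd10 P21 library), while the log2 fold change of Aplnr there stayed between -2.51 and -2.39. The cause was not tested, and nothing is read from calls of Aplnr that use the libraries it was chosen on. With a replicate block the number called was 1 in rd10 P15 against WT P15, 1 in rd10 P21 against rd10 P15 and 0 in the others, as without it, and no call changed. The replicate numbers do not pair the retinas.

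Small log2 fold changes crossed 0. With the Y-linked covariate, Flt1 became 0.0035 in rd10 P15 against WT P15 and -0.028 in rd10 P18 against rd10 P15. With library size only, Kdr became 0.013 in rd10 P18 against WT P15 and Tek 0.030 in rd10 P21 against rd10 P15. With 1 library left out, Kdr ranged from -0.10 to 0.35 in rd10 P15 against WT P15. In rd10 P18 against WT P15, Kdr ranged from -0.33 to 0.14, Flt1 from -0.56 to 0.078 and Tek from -0.66 to 0.068. Flt1 ranged from -0.18 to 0.45 in rd10 P18 against rd10 P15 and Tek from -0.39 to 0.44 in rd10 P21 against rd10 P15. In rd10 P21 against rd10 P18, Cdh5 ranged from -0.16 to 0.34, Pecam1 from -0.13 to 0.25 and Tie1 from -0.16 to 0.26. The log2 fold change of Aplnr kept its sign under each alternative run in the 6 comparisons, as did that of Apln and Vegfa.

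With 2 libraries a group, a call rests on the spread of all 8 libraries. The counts of Aplnr in WT P15 (26 and 41) set a wide counting error on its fold changes against WT P15. For members at low counts such as Esm1 a change was not detectable.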

Other observations

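The genes that ran closest to the summed level of Kdr, Flt1, Cdh5, Pecam1, Tek and Tie1 were others than those closest to Aplnr. They were Creb3l2, Notch2, Slc4a3, Neo1 and Tox, with Pearson correlations of log2 CPM between 0.94 and 0.97 over 8 libraries. Kdr made up most of this sum, and all 5 genes had their highest group mean in rd10 P21, as Kdr did. Their choice by correlation with the sum favours that. Notch2, a receptor of the Notch family, had 32.0 and 41.8 CPM in WT P15 and, for rd10, 40.8 and 35.0 at P15, 23.3 and 43.6 at P18, and 63.7 and 60.5 at P21. Slc4a3, an anion exchanger abundant in retina, had 170 and 202 CPM in WT P15 and, for rd10, 230 and 195 at P15, 159 and 220 at P18, and 254 and 248 at P21. These correlations are descriptions over libraries that share their depth, scaling and groups.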
